A study of Homo sapiens with 6 samples.

Results

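The genes described here are 40 genes of the unfolded protein response and of the integrated stress response. They were chosen by name and comprise stress sensors, ATF4 targets, XBP1 and ATF6 targets and chaperones of the endoplasmic reticulum (ER). All 40 are among the 23002 genes of the deposited table, and all 40 passed the filter on low values, which left 11870 genes.

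RNA came from U251, a long-established glioblastoma cell line of human origin. In 3 samples the stable cells carried a control hairpin (sh-NC), and in 3 a short hairpin RNA, from which the cell makes a small guide that lowers matching transcripts, against TRAF2 (sh-TRAF2). Per the study's methods, stable lines were made with lentiviral vectors and selected with puromycin, so both groups carry a hairpin vector, and no TNF-α or ER stressor is named for either group. Which of the study's TRAF2 hairpins was sequenced is not given in the sources used here. Nothing in the labels says that the 3 samples of a group were separate cultures, so p-values measure the spread between these samples, which may be technical.

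The unfolded protein response starts at sensors in the ER membrane. IRE1 (gene ERN1) is a kinase and RNase that splices the XBP1 transcript into a form encoding an active transcription factor. ATF6 is cut from the membrane and enters the nucleus, and PERK (gene EIF2AK3) phosphorylates the translation factor eIF2. Phosphorylated eIF2, made by PERK or by other kinases such as GCN2 (gene EIF2AK4), slows general translation and favours translation of ATF4, which drives genes of amino acid supply and of growth arrest. XBP1 and ATF6 drive chaperones and the machinery that removes misfolded proteins. TRAF2 is an adaptor protein that binds the cytosolic side of IRE1 and links it to the kinases ASK1 and JNK. The comparison of sh-TRAF2 with sh-NC therefore asks what the transcripts of each arm did when an adaptor downstream of IRE1 was lowered.

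Values are FPKM, which counts fragments per kilobase of gene scaled to sequencing depth. Between 33999558 and 36823562 reads on genes stood behind each sample. Fold changes are on the log2(FPKM + 0.1) scale, on which changes of weakly expressed genes come out too small, with their standard error (SE). Changed means a Benjamini-Hochberg adjusted p under 0.05 from limma over the 11870 genes tested, and the median log2 fold change of all of them was 0.02. The glioma markers VIM, CD44, SOX2 and SOX9 were present in every sample, with FPKM from 1208 to 1606 FPKM for VIM and from 24.1 to 28.7 FPKM for SOX2. GFAP lay between 0.334 and 1.62 FPKM. S100B, a glial calcium-binding protein, was found in sh-TRAF2 replicate 2 alone, at 0.0228 FPKM. Of 8 glioma markers tested, 4 rose and none fell in limma, with 6 at an unadjusted p under 0.05 and CD44 at a log2 fold change of -0.07. NES rose by 1.12, VIM by 0.35, SLC1A3 by 0.47 and GFAP, whose groups overlapped, by 1.11 (limma adjusted p = 1.91e-05, 6.87e-05, 0.00282 and 0.0382). The part of this shift in the results was not tested. Of 10 markers of other cell types, 6 had a row, and their summed level was at most 0.253 FPKM in any sample. In bulk samples a lower share of cells with a transcript and less of it per cell cannot be told apart.

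TRAF2 itself lies on chromosome 9 (GRCh38, 136881912 to 136926607). It read 15.1, 18.4 and 15.3 FPKM in sh-NC replicates 1, 2 and 3 and 3.26, 3.22 and 3.33 FPKM in sh-TRAF2 replicates 1, 2 and 3. The groups did not overlap. TRAF2 fell by 2.27 on the log2 scale (SE 0.079, limma adjusted p = 1.16e-06), as the labels have it.

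Of the 40 genes, 11 rose (27.5%) and 14 fell (35%), and 15 did not pass. Among all genes tested, 23.7% rose and 20.9% fell. The groups did not overlap for 27 of the 40 (67.5%), against 55.5% of all genes tested. The changes were small. The median log2 fold change of the 40 was -0.04 and the range ran from -0.62 for SESN2 to 0.61 for ASNS. None of the 40 passed the study's own thresholds of an absolute log2 fold change above 1 with an adjusted p under 0.05, which 0.986% of all genes passed as higher and 0.733% as lower. Without adjustment 28 of the 40 (70%) had a p under 0.05 in limma, against 52.6% of all genes tested. Limma-voom on recovered reads called 11 higher and 16 lower, again none of them at those thresholds.

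**Figure D1:**
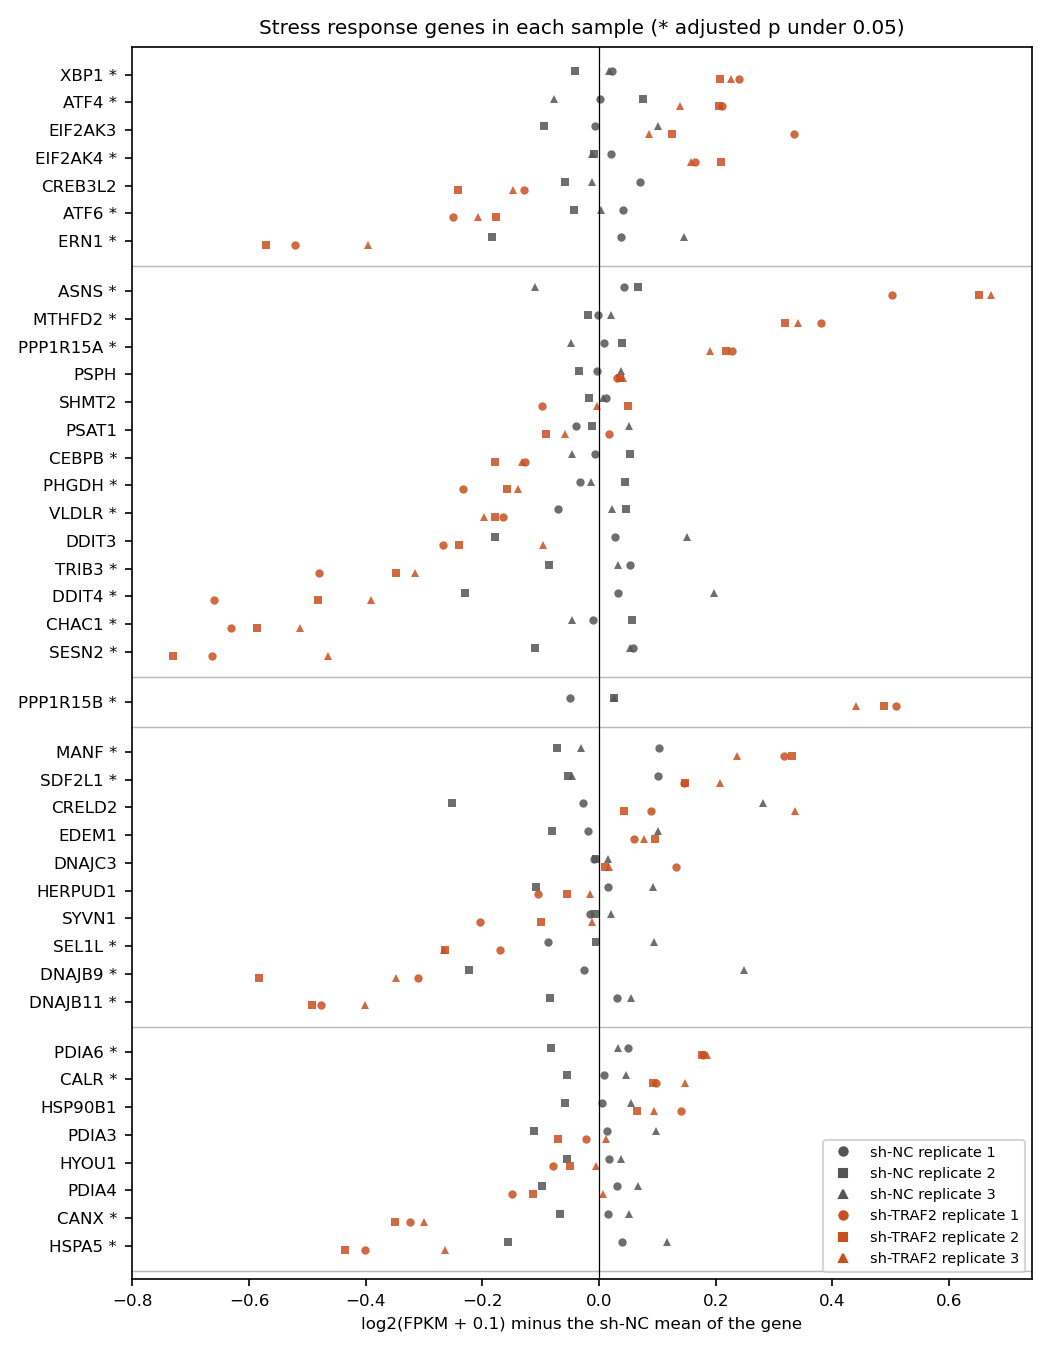
Each row is 1 of the 40 genes and each point 1 sample, placed by its log2(FPKM + 0.1) minus the gene's mean in sh-NC, with sh-NC in grey, sh-TRAF2 in orange and a shape per replicate. From top to bottom the blocks hold sensors and transcription factors, ATF4 arm targets, PPP1R15B, XBP1 and ATF6 targets, and ER chaperones, and a star marks an adjusted p under 0.05. The orange points of ASNS and PPP1R15B lie to the right of all grey ones, those of SESN2, CHAC1 and DNAJB11 to the left, and each block holds genes on both sides except that of PPP1R15B alone.

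A short match to a study hairpin stood in some of these genes, and it is given first because it recurs beside the results. Of the study's hairpins, the target of sh-TRAF2#1 has 21 bases, shown here 5′ to 3′ with bases 10 to 16 in capitals.
sh-TRAF2#1 target: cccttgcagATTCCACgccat
The same 7 bases occur in the longest 3′UTR (GENCODE release 29, GRCh38) of 4 of the 40 genes, ERN1, CHAC1, SEL1L and CANX. Their sites, on the strand of the transcript and with the shared bases in capitals, are these.
ERN1 (chr17:64040022-64040045, minus strand): gagccgaaATTCCACcctcccagg
CHAC1 (chr15:40956172-40956195, plus strand): ccctgggaATTCCACctgccaagg
SEL1L (chr14:81472920-81472943, minus strand): aaataaagATTCCACctctggtta
CANX (chr5:179729384-179729407, plus strand): gcatttatATTCCACttgggaggg
All 4 of these genes fell, and 10 of the 36 others fell (27.8%). Over all genes tested with a 3′UTR, 10.7% held the 7 bases; 36.5% of those fell, against 20.3% of the rest. Among the other pathway genes listed here 8 held it, of which 6 fell and 1 rose. No other stretch of this target was searched, nor was the study's other TRAF2 hairpin. These shares did not take the length of the 3′UTRs into account. Why bases 10 to 16 were taken is not recorded, so the match is given as a description only. The part of this match in the changes was not tested.

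Of the 7 sensors and transcription factors, XBP1, ATF4 and EIF2AK4 rose and ERN1 and ATF6 fell, and EIF2AK3 and CREB3L2 did not pass. The shares of 42.9% and 28.6% stand beside 23.7% and 20.9% of all genes tested. ERN1, the gene of IRE1 itself (GRCh38 chromosome 17, 64039142 to 64130819), read 4.51, 3.86 and 4.87 FPKM in the 3 sh-NC samples and 3.03, 2.93 and 3.32 FPKM in the 3 sh-TRAF2 samples. The highest sh-TRAF2 sample was below the lowest sh-NC sample. ERN1 fell by 0.50 on the log2 scale (SE 0.096, limma adjusted p = 0.00378), which makes its mean FPKM 30.0% lower, on 1095 to 1974 reads per sample. It is 1 of the 4 genes with the 7-base match above.

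XBP1, whose transcript IRE1 splices (chromosome 22, 28794555 to 28800597), read 222, 212 and 221 FPKM in sh-NC and 258, 252 and 255 FPKM in sh-TRAF2. All 3 sh-TRAF2 samples were above all 3 sh-NC samples. XBP1 rose by 0.22 (SE 0.030, limma adjusted p = 0.000611). A gene-level FPKM does not separate spliced from unspliced XBP1, so this is the total transcript.

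ATF6, the sensor that is itself cut into a transcription factor, read 19.8, 18.6 and 19.3 FPKM in sh-NC and 16.1, 17.0 and 16.6 FPKM in sh-TRAF2. The groups were apart, and ATF6 fell by 0.21 (SE 0.044, limma adjusted p = 0.00542). PERK is encoded by EIF2AK3, which read 3.87, 3.64 and 4.18 FPKM in sh-NC and 4.93, 4.25 and 4.13 FPKM in sh-TRAF2. These overlapped, since sh-TRAF2 replicate 3 lay below sh-NC replicate 3, and its log2 fold change of 0.18 had a 95% confidence interval of -0.02 to 0.38 (limma adjusted p = 0.124).

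GCN2, the kinase that senses uncharged tRNA, is encoded by EIF2AK4. EIF2AK4 read 20.5, 20.1 and 20.1 FPKM in sh-NC and 22.7, 23.4 and 22.6 FPKM in sh-TRAF2, without overlap. EIF2AK4 rose by 0.18 (SE 0.039, limma adjusted p = 0.00691). CREB3L2, an ER-anchored transcription factor of the same general design as ATF6, read 3.61, 3.30 and 3.40 FPKM in sh-NC and 3.13, 2.89 and 3.09 FPKM in sh-TRAF2. Its groups did not overlap either, but the log2 fold change of -0.17 did not pass (limma adjusted p = 0.0818).

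ATF4 itself rose, while 7 of its targets fell and 3 rose. ATF4 (chromosome 22, 39519695 to 39522685) read 85.5, 90.0 and 80.9 FPKM in sh-NC and 98.8, 98.5 and 94.0 FPKM in sh-TRAF2, so that the lowest sh-TRAF2 sample was above the highest sh-NC sample. ATF4 rose by 0.19 (SE 0.045, limma adjusted p = 0.0109). ATF4 is regulated mainly through translation, which these data did not measure. Of its 14 targets and partners among the 40 genes, 7 fell (50%) and 3 rose (21.4%), beside 20.9% and 23.7% of all genes tested, with a median log2 fold change of -0.16. GENCODE lists 4, 4 and 7 pseudogene copies of ATF4, ASNS and MTHFD2. It also lists 4 of PSAT1, 2 of PDIA3 and 1 each of PSPH and XBP1. Reads shared with such copies make the levels of all these genes uncertain.

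The targets that fell furthest were SESN2, CHAC1, DDIT4 and TRIB3. SESN2, a stress protein that restrains the growth kinase mTORC1, read 91.8, 81.7 and 91.5 FPKM in sh-NC and 55.6, 53.1 and 63.9 FPKM in sh-TRAF2. All 3 sh-TRAF2 samples were far below the sh-NC range. SESN2 fell by 0.62 (SE 0.074, limma adjusted p = 0.000313). CHAC1, an enzyme that breaks down glutathione, read 45.6, 47.8 and 44.5 FPKM in sh-NC and 29.6, 30.6 and 32.2 FPKM in sh-TRAF2. CHAC1 fell by 0.58 (SE 0.046, limma adjusted p = 4.70e-05), and its 3′UTR holds the 7-base match.

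DDIT4, another inhibitor of mTORC1, read 373, 311 and 418 FPKM in sh-NC and 231, 261 and 278 FPKM in sh-TRAF2. The spread within sh-NC was wide, yet its lowest sample stayed above all of sh-TRAF2. DDIT4 fell by 0.51 (SE 0.11, limma adjusted p = 0.00507). TRIB3, a pseudokinase induced by ATF4 together with CHOP, read 98.8, 89.7 and 97.3 FPKM in sh-NC and 68.2, 74.8 and 76.5 FPKM in sh-TRAF2. TRIB3 fell by 0.38 (SE 0.055, limma adjusted p = 0.000836), with the groups apart.

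CHOP, the transcription factor linked to death under lasting ER stress, is encoded by DDIT3. DDIT3 read 143, 124 and 156 FPKM in sh-NC and 117, 119 and 131 FPKM in sh-TRAF2. The highest sh-TRAF2 sample was above sh-NC replicate 2, and the log2 fold change of -0.20 did not pass (limma adjusted p = 0.0744). Without sh-NC replicate 2 it was -0.29 and passed (limma adjusted p = 0.00778). It also passed with limma-voom, quantile normalization and a replicate block, at -0.20, -0.29 and -0.20 (limma adjusted p = 0.0397, 0.0221 and 0.0174). Its partner CEBPB read 141, 147 and 137 FPKM in sh-NC and 130, 125 and 129 FPKM in sh-TRAF2. CEBPB fell by 0.15 (SE 0.036, limma adjusted p = 0.0117), the smallest of the changes in this group that passed. VLDLR, a lipoprotein receptor, read 17.5, 18.9 and 18.6 FPKM in sh-NC and 16.35, 16.19 and 15.98 FPKM in sh-TRAF2, and it fell by 0.18 (SE 0.046, limma adjusted p = 0.0136).

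The amino acid and folate enzymes divided. ASNS, asparagine synthetase, read 4.45, 4.52 and 3.99 FPKM in sh-NC and 6.15, 6.83 and 6.93 FPKM in sh-TRAF2. The lowest sh-TRAF2 sample was well above the highest sh-NC sample. ASNS rose by 0.61 (SE 0.074, limma adjusted p = 0.000362), the largest rise of the 40, on 479 to 786 reads per sample. MTHFD2, a mitochondrial folate enzyme, read 164, 162 and 167 FPKM in sh-NC and 214, 205 and 208 FPKM in sh-TRAF2. MTHFD2 rose by 0.35 (SE 0.031, limma adjusted p = 7.64e-05), and its samples were tight in both groups.

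The serine synthesis enzymes moved little. PHGDH, the entry enzyme, read 68.9, 72.7 and 69.8 FPKM in sh-NC and 59.9, 63.1 and 63.9 FPKM in sh-TRAF2, and it fell by 0.18 (SE 0.040, limma adjusted p = 0.00761). PSAT1 and PSPH, the enzymes after it, and SHMT2, which feeds serine into the folate pool, overlapped between groups. Their log2 fold changes of -0.04, 0.04 and -0.02 did not pass. The 95% confidence intervals were -0.13 to 0.05, -0.04 to 0.11 and -0.11 to 0.08.

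Both regulatory subunits that direct a phosphatase to eIF2 rose. PPP1R15A (GADD34), the subunit induced through ATF4, read 529, 541 and 509 FPKM in sh-NC and 616, 612 and 600 FPKM in sh-TRAF2. PPP1R15A rose by 0.21 (SE 0.031, limma adjusted p = 0.000912). PPP1R15B (CReP), the constitutive subunit, read 32.0, 33.7 and 33.7 FPKM in sh-NC and 47.2, 46.6 and 45.0 FPKM in sh-TRAF2. The groups were far apart. PPP1R15B rose by 0.48 (SE 0.040, limma adjusted p = 5.76e-05), next to ASNS the largest rise of the 40.

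**Figure D2:**
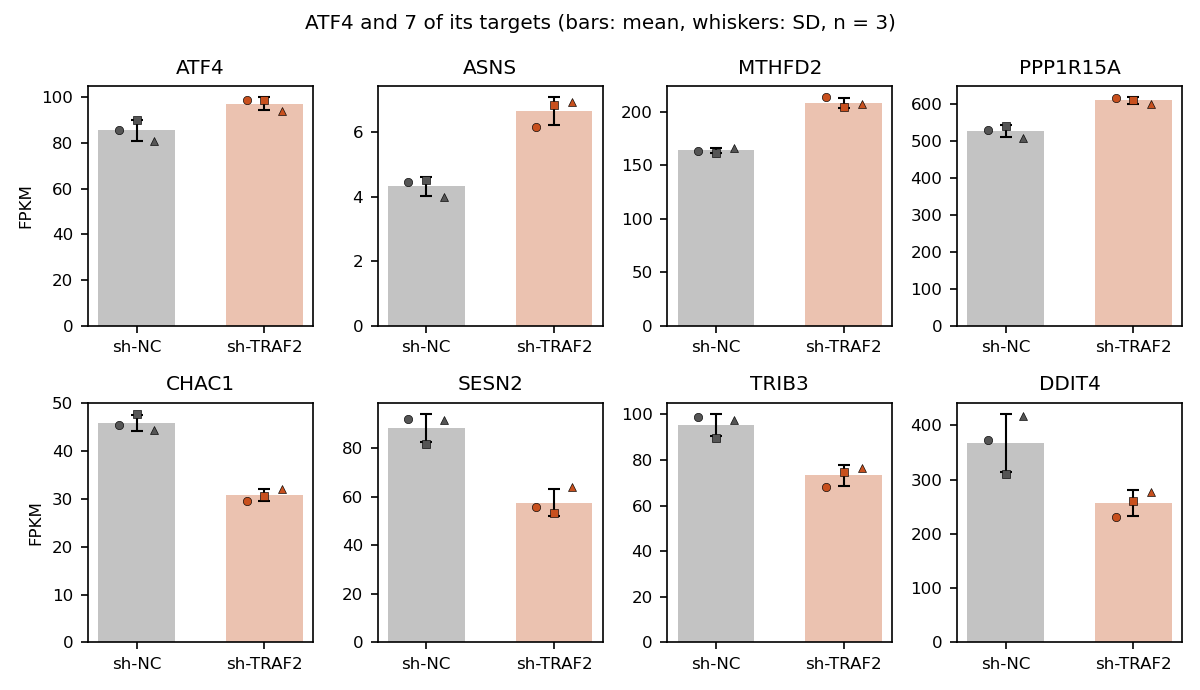
Bars give the mean FPKM of 3 samples for ATF4 and 7 of its targets in sh-NC (grey) and sh-TRAF2 (orange), whiskers the SD and points the samples; each vertical axis starts at 0 and has its own scale. ATF4, ASNS, MTHFD2 and PPP1R15A are higher in sh-TRAF2, with no overlapping sample, and CHAC1, SESN2, TRIB3 and DDIT4 are lower, with no overlapping sample.

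ATF4 binds with C/EBP partners to a composite element, TGATGCAA, which was searched on both strands of RefSeq promoters (GRCh38.p14, from 250 bases before to 50 bases after each start). Promoters were found for 37 of the 40 genes, all but PDIA3, SHMT2 and PSPH. The element stood in a promoter of 3 of the 37 and of 1.08% of all 27305 genes with a promoter (0.866% of all 35116 promoters). It is shown in capitals, 5′ to 3′ on the strand that carries it, to set its carriers beside their different changes.
CHAC1, which fell (chr15:40953252-40953279): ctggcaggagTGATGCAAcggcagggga
PPP1R15B, which rose (chr1:204412027-204412054): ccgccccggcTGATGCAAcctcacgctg
HERPUD1, which did not pass (chr16:56931956-56931983): gggcacgggcTGATGCAAcccgccgcgt
The element is in the minus strand in CHAC1 and HERPUD1 as seen from the gene, and these 3 carriers had each of the 3 outcomes. Of 103 other pathway genes with a promoter, 6 held it, among them ATF4 targets of the list described next. Of these, CEBPG, JDP2 and MTHFD1L fell by 0.39, 0.39 and 0.16 (limma adjusted p = 0.000107, 0.00238 and 0.0308). SLC1A5 did not pass, at 0.02 (limma adjusted p = 0.632), and FGF21 was not tested. These genes were named after their values were seen.

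Other known targets of ATF4 were read from a separate list of 28 genes, 26 of them tested. Of these 19 fell (73.1%) and none rose in limma (at most 1 in any alternative), where 20.9% of all genes fell and 23.7% rose; 1 was higher at an unadjusted p under 0.05, and limma-voom called 20 lower and none higher. With 1 sample left out, 14 to 18 fell. The median log2 fold change was -0.32, against 0.02 over all genes tested. The summed level of the list was 2877 to 3027 FPKM in sh-NC and 2485 to 2591 FPKM in sh-TRAF2. Without SLC7A5, the only gene of the list with the 7-base match, the median was -0.30 and 18 of 25 fell. The lists were chosen with earlier results of these data known, so nothing is claimed for this list beyond its counts.

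The genes of that list with the smallest adjusted p handle amino acids. SLC7A5, the light chain of the large neutral amino acid transporter, read 209, 214 and 215 FPKM in sh-NC and 108, 108 and 113 FPKM in sh-TRAF2. SLC7A5 fell by 0.95 (SE 0.032, limma adjusted p = 1.16e-06). Its heavy chain SLC3A2, named after its values were seen, had a log2 fold change of -0.02 (limma adjusted p = 0.636). GPT2, a mitochondrial alanine transaminase, read 34.1, 35.6 and 35.1 FPKM in sh-NC and 14.9, 17.1 and 16.4 FPKM in sh-TRAF2. GPT2 fell by 1.11 (SE 0.055, limma adjusted p = 4.82e-06) and is the only gene of the list past the study's thresholds. CTH, an enzyme of cysteine synthesis, read 37.6, 36.1 and 37.4 FPKM in sh-NC and 24.8, 23.2 and 24.8 FPKM in sh-TRAF2, and it fell by 0.61 (SE 0.043, limma adjusted p = 2.67e-05).

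CBS, the enzyme before CTH in that pathway, shows how 1 library can decide a value. It read 0.423, 0.398 and 0.449 FPKM in sh-NC and 0.275, 0.407 and 3.47 FPKM in sh-TRAF2, so only replicate 3 was high. Its log2 fold change of 0.75 did not pass (limma adjusted p = 0.426) and was -0.26 without that sample. Of the 2 genes left untested, FGF21 had at most 27 reads in any sample. ADM2 was found in sh-NC replicate 1 alone, at 0.00655 FPKM.

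**Figure D3:**
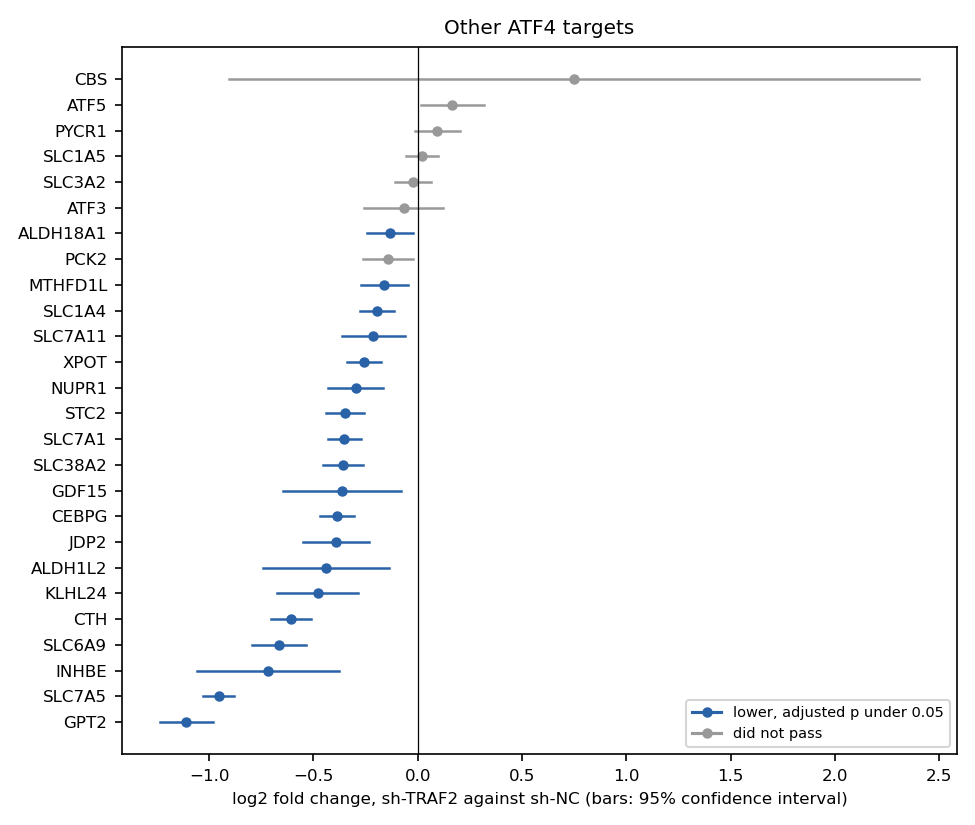
Points give the log2 fold change of sh-TRAF2 against sh-NC for the 26 tested genes of the other ATF4 targets, and bars its 95% confidence interval from limma; blue marks an adjusted p under 0.05 and grey the rest. The 19 blue genes all lie left of 0, from ALDH18A1 to GPT2, and the widest bar is that of CBS.

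Transcripts around eIF2, whose phosphorylation comes before ATF4, were read from another list, also chosen with earlier results of these data known. Phosphorylation and activity of eIF2 were not measured. Of 13 genes for eIF2, its exchange factor eIF2B, its other kinases and their regulators, 9 rose (69.2%) and none fell, beside 23.7% and 20.9% of all genes. Over the 15 alternatives 6 to 9 rose and none fell. All 5 subunits of eIF2B were among the 9, but EIF2B5, with a log2 fold change of 0.21 (limma adjusted p = 0.0416), overlapped between groups and lost its call in 8 of the alternatives. Of the 3 subunits of eIF2, EIF2S3 had a log2 fold change of -0.02 and did not pass (limma adjusted p = 0.676), and EIF2S2 rose by 0.10 (limma adjusted p = 0.0447), a call that was lost in 10 of the alternatives. An unadjusted p under 0.05 was reached by 9 of the 13 in all. EIF2S1, the subunit that is phosphorylated, read 28.9, 30.1 and 27.6 FPKM in sh-NC and 42.5, 39.6 and 39.1 FPKM in sh-TRAF2. EIF2S1 rose by 0.48 (SE 0.049, limma adjusted p = 0.00015). EIF2B1 and EIF2B4, subunits of the exchange factor, rose by 0.52 and 0.38 (limma adjusted p = 0.00017 and 0.00125).

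Genes of the branch from IRE1 and TRAF2 to ASK1 and JNK gave no common direction. In the list of ASK1, JNK and their neighbours, 2 of 8 genes rose (25%) and 1 fell (12.5%), beside 23.7% and 20.9% of all genes tested. ASK1 (gene MAP3K5) had a log2 fold change of 0.12, with groups that did not overlap, and did not pass (limma adjusted p = 0.153). The JNK genes MAPK8 and MAPK9, at -0.03 and -0.12, did not pass either (limma adjusted p = 0.646 and 0.166). ASK1 and JNK were named after their values were seen. MAP2K4, a kinase that activates JNK, read 14.65, 14.99 and 15.09 FPKM in sh-NC and 11.04, 11.26 and 11.70 FPKM in sh-TRAF2, and it fell by 0.39 (SE 0.045, limma adjusted p = 0.00026). BAK1, a pore-forming protein of the mitochondrion, rose by 0.31 (limma adjusted p = 0.00481) and MAPK8IP1, a JNK scaffold, by 0.34 (limma adjusted p = 0.0225). The call of MAPK8IP1 was lost without sh-NC replicate 1 or 3 or without sh-TRAF2 replicate 2 or 3, at log2 fold changes of 0.27 to 0.34 (limma adjusted p = 0.0526 to 0.0776).

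IRE1 also cuts other transcripts at the ER, and 6 of 7 such substrates were tested. Of these 1 rose (16.7%) and 3 fell (50%), beside 23.7% and 20.9% of all genes tested. HGSNAT, a lysosomal acetyltransferase, fell by 0.40 (limma adjusted p = 0.00033), SPARC, a matrix protein, by 0.33 (limma adjusted p = 0.00558) and COL6A1, a collagen chain, by 0.23 (limma adjusted p = 0.00299). BLOC1S1, a substrate used as a reporter of this decay and named after its values were seen, had a log2 fold change of -0.16 and did not pass (limma adjusted p = 0.402), while without sh-NC replicate 1 it was -0.33 and passed (limma adjusted p = 0.036). Among 10 tested genes that regulate the sensors or are related to them, 2 rose (20%) and 3 fell (30%). NFE2L2, a transcription factor of the oxidative response that PERK phosphorylates, read 73.7, 67.6 and 72.6 FPKM in sh-NC and 44.8, 44.6 and 44.7 FPKM in sh-TRAF2. NFE2L2 fell by 0.67 (SE 0.041, limma adjusted p = 1.23e-05). CREB3, an ER-anchored factor, rose by 0.61 (limma adjusted p = 3.96e-05) and MBTPS2, a protease that releases ATF6, by 0.50 (limma adjusted p = 0.000995).

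The 10 targets of XBP1 and ATF6 outside the chaperone list had a median log2 fold change of 0.00, with 2 that rose and 3 that fell. These shares of 20% and 30% stand beside 23.7% and 20.9% of all genes tested. DNAJB11 (ERdj3), a helper of the chaperone BiP, read 97.0, 89.6 and 98.6 FPKM in sh-NC and 68.2, 67.5 and 71.9 FPKM in sh-TRAF2. The gap between the groups was wider than the spread in either. DNAJB11 fell by 0.46 (SE 0.046, limma adjusted p = 0.00015). DNAJB9 (ERdj4), a helper that also restrains IRE1, read 12.58, 10.96 and 15.25 FPKM in sh-NC and 10.31, 8.52 and 10.05 FPKM in sh-TRAF2. DNAJB9 fell by 0.41 (SE 0.12, limma adjusted p = 0.0224), but without sh-NC replicate 3 or without sh-TRAF2 replicate 2 the log2 fold change was -0.29 and -0.33 and the limma adjusted p 0.0508 and 0.0767.

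SEL1L, the scaffold of the complex that exports misfolded proteins, read 29.9, 31.6 and 33.9 FPKM in sh-NC and 28.2, 26.4 and 26.4 FPKM in sh-TRAF2. SEL1L fell by 0.23 (SE 0.055, limma adjusted p = 0.00931), and it holds the 7-base match. SYVN1 (HRD1), the ubiquitin ligase of the same complex, and EDEM1, which hands glycoproteins to it, overlapped between groups, with log2 fold changes of -0.11 and 0.08. HERPUD1, another part of that complex, DNAJC3, a helper of BiP, and CRELD2, a secreted ER protein, had log2 fold changes of -0.06, 0.05 and 0.16 and did not pass.

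MANF, an ER protein that is secreted under stress, went the other way. It read 78.3, 69.4 and 71.3 FPKM in sh-NC and 90.9, 91.7 and 85.9 FPKM in sh-TRAF2, with every sh-TRAF2 sample above every sh-NC sample. MANF rose by 0.29 (SE 0.051, limma adjusted p = 0.00222). SDF2L1, a partner of the BiP cycle, read 15.6, 14.0 and 14.0 FPKM in sh-NC and 16.1, 16.1 and 16.8 FPKM in sh-TRAF2. SDF2L1 rose by 0.17 (SE 0.055, limma adjusted p = 0.0357), a call that was lost in 10 of the 15 alternatives. These include the fits without sh-NC replicate 2 or 3 or without any 1 of the sh-TRAF2 samples, with log2 fold changes of 0.14 to 0.18 and limma adjusted p-values of 0.0621 to 0.113.

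Of the 8 ER chaperones and oxidoreductases, 2 fell, 2 rose and 4 did not pass, with a median of -0.04. Both shares were 25%, beside 20.9% that fell and 23.7% that rose among all genes tested. Over the alternatives the count that rose ran from 0 to 3. HSPA5 (BiP; chromosome 9, 125234853 to 125241330) is the chaperone that holds the sensors inactive. It read 797, 697 and 842 FPKM in sh-NC and 588, 574 and 646 FPKM in sh-TRAF2. Its highest sh-TRAF2 sample was below its lowest sh-NC sample. HSPA5 fell by 0.37 (SE 0.071, limma adjusted p = 0.00363), on 77252 to 122671 reads per sample. CANX, the membrane-bound lectin chaperone, read 250, 237 and 257 FPKM in sh-NC and 198, 194 and 201 FPKM in sh-TRAF2. CANX fell by 0.32 (SE 0.037, limma adjusted p = 0.000257), and it holds the 7-base match.

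CALR, the soluble relative of CANX in the ER lumen, did not follow it. CALR read 527, 504 and 541 FPKM in sh-NC and 561, 558 and 581 FPKM in sh-TRAF2, and it rose by 0.11 (SE 0.034, limma adjusted p = 0.0266). Under quantile normalization its log2 fold change was 0.04 and the call was lost (limma adjusted p = 0.428). The call was also lost without sh-NC replicate 1 or 2 or without any 1 of the sh-TRAF2 samples, where the log2 fold change was 0.09 to 0.12 and the limma adjusted p 0.0513 to 0.0944. PDIA6, a disulfide isomerase, read 126, 115 and 125 FPKM in sh-NC and 138, 138 and 139 FPKM in sh-TRAF2. PDIA6 rose by 0.18 (SE 0.040, limma adjusted p = 0.0072), and under quantile normalization this call was lost too, at 0.11 (limma adjusted p = 0.0739).

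HSP90B1 (GRP94), the ER form of the HSP90 family, had groups that did not overlap, from 237 to 256 FPKM in sh-NC and from 258 to 272 FPKM in sh-TRAF2. Its log2 fold change of 0.10 did not pass (limma adjusted p = 0.0599), but passed without sh-NC replicate 3 (0.13, limma adjusted p = 0.0347). It also passed with limma-voom and with a replicate block, at 0.10 in both (limma adjusted p = 0.0435 and 0.0396). The isomerases PDIA3 and PDIA4 and the BiP exchange factor HYOU1 overlapped between groups, with log2 fold changes of -0.03, -0.09 and -0.04.

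The chaperones together read 2026 to 2284 FPKM in sh-NC and 1961 to 2082 FPKM in sh-TRAF2, ranges that overlap. Without HSPA5 they read 1329 to 1442 FPKM and 1387 to 1436 FPKM. The libraries also differed within a group. All 8 chaperones were lowest in replicate 2 of sh-NC and 6 of 8 in replicate 2 of sh-TRAF2, and in both groups 7 of 8 were highest in replicate 3. Of the 40 genes, 27 were lowest in sh-NC replicate 2 (67.5%), where 36.3% of all genes were. The part of this library in the calls was read by leaving it out: 9 genes rose and 15 fell among the 40 without it.

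**Figure D4:**
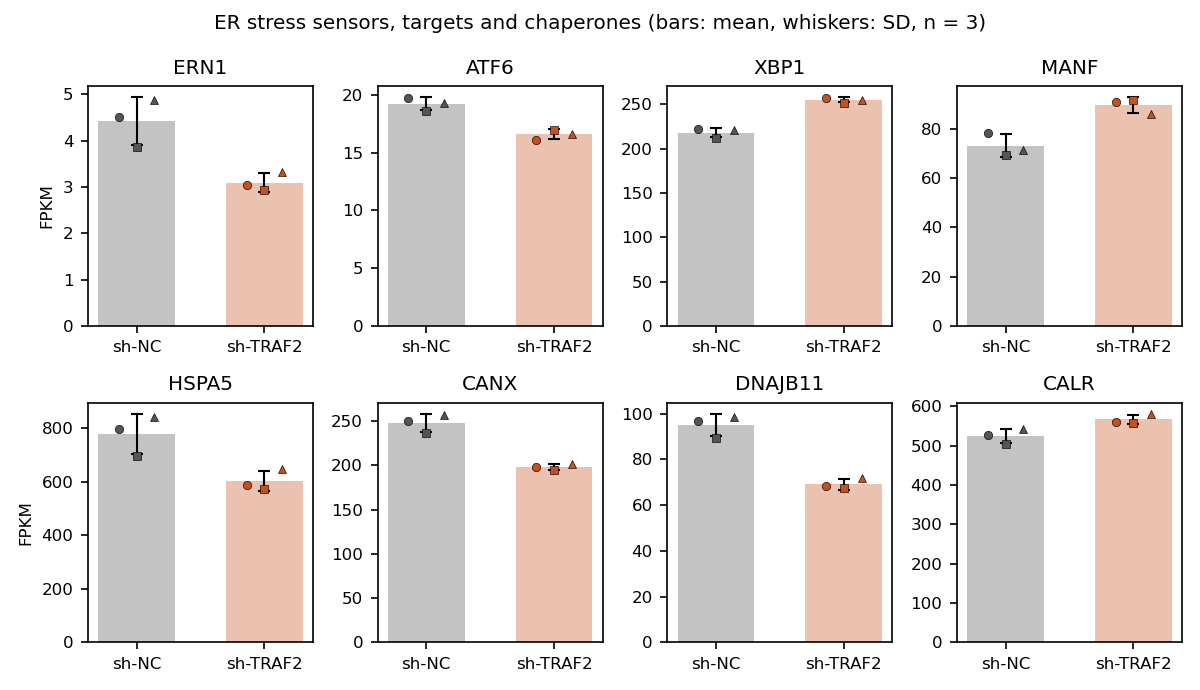
Bars give the mean FPKM of 3 samples for 2 sensors, XBP1, 3 ER targets or chaperones and the lectin chaperones CANX and CALR, in sh-NC (grey) and sh-TRAF2 (orange), whiskers the SD and points the samples; each vertical axis starts at 0 and has its own scale. ERN1, ATF6, HSPA5, CANX and DNAJB11 are lower in sh-TRAF2 and XBP1, MANF and CALR higher, in each case with no overlapping sample.

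Chaperone promoters are known for the ER stress response element (ERSE), which ATF6 and XBP1 bind together with the factor NF-Y. It was searched as CCAAT, 9 bases of any kind and CCACG, on both strands of the same 300-base promoters. It stood in a promoter of 7 of the 37 genes (18.9%) and of 0.0916% of all genes with a promoter (0.0769% of all 35116 promoters, since a gene can have several). The sites are printed 5′ to 3′ on the strand that carries them, with the element in capitals and 10 bases on each side, because genes that share it changed differently.
HSPA5, which fell (chr9:125241381-125241419): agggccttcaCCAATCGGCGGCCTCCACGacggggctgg
CANX, which fell (chr5:179698768-179698806): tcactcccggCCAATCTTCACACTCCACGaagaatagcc
CALR, which rose (chr19:12938374-12938412): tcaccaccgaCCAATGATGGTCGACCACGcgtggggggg
PDIA6, which rose (chr2:10812843-10812881): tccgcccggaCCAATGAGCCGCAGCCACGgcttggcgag
XBP1, which rose (chr22:28800593-28800631): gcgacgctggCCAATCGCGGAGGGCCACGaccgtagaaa
HSP90B1, which did not pass (chr12:103930206-103930244): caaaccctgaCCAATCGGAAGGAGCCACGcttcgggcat
HSP90B1, further site (chr12:103930311-103930349): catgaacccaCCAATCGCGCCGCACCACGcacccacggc
CRELD2, which did not pass (chr22:49918544-49918582): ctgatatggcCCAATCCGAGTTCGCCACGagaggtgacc
Of the 7 carriers, 2 fell, 3 rose and 2 did not pass. The upstream end of the element lay 66 bases before the start in HSPA5, 52 in XBP1, 86 in PDIA6 and 225 in CALR, and the element was on the minus strand as seen from the gene in CALR, CRELD2 and the further site of HSP90B1.

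A shorter form, ERSE-II, was searched as ATTGG, 1 base of any kind and CCACG. It stood in a promoter of 3 of the 37 genes and of 0.0696% of all genes (0.0541% of all promoters).
SDF2L1, which rose (chr22:21642104-21642134): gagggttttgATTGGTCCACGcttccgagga
HERPUD1, which did not pass (chr16:56932015-56932045): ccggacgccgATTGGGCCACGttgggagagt
HYOU1, which did not pass (chr11:119057264-119057294): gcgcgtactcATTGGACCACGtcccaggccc
HYOU1, further site (chr11:119057370-119057400): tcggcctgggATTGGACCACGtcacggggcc
The core of the XBP1 element, TGACGTGG, stood in 1 of the 37, HYOU1, where it overlaps the further ERSE-II site, and in a promoter of 0.927% of all genes (0.729% of all promoters). DNAJB11, DNAJB9, SEL1L and MANF, which changed, held none of the 4 elements in this window.

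In the wider ER machinery, the degradation list of 16 tested genes had 3 that rose and 5 that fell, shares of 18.8% and 31.2% beside 23.7% and 20.9% of all genes tested. The row of EDEM2, which did not pass, is described as a readthrough, and without it the counts were 3 and 5 of 15. DERL1, a channel subunit for misfolded proteins, read 25.0, 25.7 and 25.8 FPKM in sh-NC and 11.9, 10.6 and 10.9 FPKM in sh-TRAF2. DERL1 fell by 1.19 (SE 0.052, limma adjusted p = 2.97e-06), past the study's thresholds. FAF2, which recruits the extracting ATPase, fell by 0.73 (limma adjusted p = 3.18e-05) and UBE2G2, a ubiquitin-conjugating enzyme, by 0.36 (limma adjusted p = 0.000447).

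The other ER folding enzymes numbered 25, of which 4 rose (16%) and 8 fell (32%), with a median of 0.07. The shares over all genes tested were 23.7% and 20.9%. GANAB, the catalytic subunit of glucosidase II, which trims glycans for CALR and CANX, read 42.5, 36.8 and 45.5 FPKM in sh-NC and 111, 117 and 118 FPKM in sh-TRAF2. GANAB rose by 1.47 (SE 0.072, limma adjusted p = 4.54e-06). PDIA5, a disulfide isomerase, read 6.32, 6.97 and 6.29 FPKM in sh-NC and 2.74, 2.58 and 2.60 FPKM in sh-TRAF2. PDIA5 fell by 1.27 (SE 0.068, limma adjusted p = 6.91e-06). PPIB, a prolyl isomerase whose 3′UTR holds the 7-base match, fell by 0.70 (limma adjusted p = 4.32e-06).

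Of 14 genes that carry proteins into the ER, 8 rose (57.1%) and 3 fell (21.4%), beside 23.7% and 20.9% of all genes tested. This list too was chosen with earlier results of these data known. SEC11A, a signal peptidase subunit, rose by 0.79 (limma adjusted p = 5.96e-06) and SSR2, a translocon-associated protein, by 0.40 (limma adjusted p = 4.60e-05). SEC61A1, the channel itself, read 108, 102 and 105 FPKM in sh-NC and 59.6, 60.7 and 60.3 FPKM in sh-TRAF2. SEC61A1 fell by 0.80 (SE 0.035, limma adjusted p = 2.97e-06), and its 3′UTR holds the 7-base match. SSR1, a translocon-associated protein named after its values were seen, also holds it and rose by 0.23 (limma adjusted p = 0.0116).

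Heat shock genes of the cytosol and mitochondrion, read for comparison, rose in 7 of 12 and fell in 2, beside 23.7% and 20.9% of all genes tested. Their median was 0.18, against -0.04 for the ER chaperones, and their list was likewise chosen with earlier results known. Among the falls is HSPE1, whose row has the symbol and gene number of HSPE1 but a description that names a readthrough with MOB4. Its value is therefore uncertain, and without it 7 of 11 rose and 1 fell. HSP90AA1, the inducible cytosolic HSP90, read 129, 123 and 128 FPKM in sh-NC and 227, 218 and 220 FPKM in sh-TRAF2. HSP90AA1 rose by 0.81 (SE 0.034, limma adjusted p = 2.66e-06). DNAJA1, a partner of cytosolic HSP70, rose by 0.42 (limma adjusted p = 0.000198), and BAG3, a co-chaperone of aggregate clearance, fell by 0.32 (limma adjusted p = 0.000258).

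Over the whole pathway, the 118 other genes tested had 29 that rose (24.6%) and 42 that fell (35.6%), beside 23.7% and 20.9% of all genes tested. The other ATF4 targets gave 19 of these 42 falls. All the lists were chosen with earlier results of these data known. Reads of several members can include those of genes on the opposite strand, since the use of strand in counting is not given in the sources used here. These members are CANX, CEBPB, DDIT3, DDIT4, DNAJB9, DNAJB11, HSP90B1, MTHFD2, PDIA3, PDIA6, SHMT2, SYVN1 and VLDLR. On the same strand, SYVN1 also overlaps FAU and MIR6751, and HSP90B1 overlaps MIR3652.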

How the data were processed

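RNA sequencing libraries of U251 cells (3 sh-NC, 3 sh-TRAF2) were prepared, sequenced and processed by OE Biotech. The authors deposited 1 table of FPKM values; the submitters' processing notes list HISAT2, HTSeq, R 3.2.0 and DESeq2, and the genome build is not given in the sources used here. Reads behind the FPKM values were recovered from their steps. All 23002 genes gave whole reads (relative tolerance 1e-10), 33999558 to 36823562 per sample. A gene with no value in any sample, or with a value in a single sample, passes by construction. In the latter case the sample is set to 1 read.

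The test ran on log2(FPKM + 0.1) for the 11870 genes whose mean FPKM reached 0.5. It was the moderated test of limma 3.58.1 (R 4.3.3; lmFit, then eBayes with a trend), two-sided, of sh-TRAF2 against sh-NC, with Benjamini-Hochberg adjustment. The fit was tested on simulated data. Named are TRAF2, the 40 members and, from each other list, the 3 genes of smallest adjusted p; other genes were named after their values were seen. The members and lists were chosen with earlier results of these data known, and the GO terms were added after the data were seen. The 15 alternatives changed the pseudocount (0.01 or 1), the filter (none, or 1 FPKM), the scaling (equal totals, or quantile normalization), added a replicate block, dropped the trend, used limma-voom on recovered reads, or left out 1 sample. Promoters came from RefSeq (GRCh38.p14) and 3′UTRs from GENCODE release 29. Protein sequences were not used here. Python 3.11.15, numpy 2.4.6, pandas 2.3.3 and matplotlib 3.10.9 were used.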

Additional observations from a re-analysis of the deposited data

How the results depend on the processing

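With 3 samples a group, small changes rest on few degrees of freedom, and the limit set by depth was not tested. The count of members that rose and of those that fell stayed within 1.5 times the reported one in all 15 alternatives, as did the count of other ATF4 targets that fell, and the median of all genes moved by under 0.1. Of 600 comparisons of a member with an alternative, 565 kept direction and side of the threshold, 23 lost a call (SDF2L1 10, CALR 8, DNAJB9 4, PDIA6 1), 9 gained one (DDIT3, HSP90B1, CREB3L2) and 3 changed sign; the cause was not tested. At the study's thresholds limma-voom, which also took in more genes (14130, by a minimum of 10 reads on average), called 239 genes higher and 174 lower, of which 140 and 100 were among the genes of the reported fit, and a pseudocount of 1 called 46 and 41, against 117 and 87. With each sample left out, members that rose numbered 9 to 11 and members that fell 13 to 15, and the TRAF2 log2 fold change stayed between -2.33 and -2.18. The median log2 fold change of the ATF4 arm targets was -0.20 under quantile normalization and ran from -0.17 to -0.14 with a sample left out. That of the other ATF4 targets was -0.27 with a pseudocount of 1 and ran from -0.34 to -0.25. Signs changed under quantile normalization for PSPH (-0.013) and SLC1A5 (-0.016), and with a sample left out for SHMT2 (-0.051 to 0.023), PDIA3 (-0.083 to 0.022), CBS (-0.26 to 1.36) and SLC3A2 (-0.052 to 0.013), none of which passed as reported; SLC3A2 passed under quantile normalization, at -0.089. Over all genes, same-numbered samples deviated together little, with correlations over genes of -0.08, 0.07 and 0.07 for replicates 1, 2 and 3. Replicates 2 and 3 of sh-NC went best with the same number, and sh-NC replicate 1 with sh-TRAF2 replicate 3. The numbers were not taken as pairs, although in both groups 7 of 8 chaperones were highest in replicate 3. Replicate 3 was also highest for 22 of the 40 genes in sh-NC and 21 in sh-TRAF2. Of the 26 other ATF4 targets it was highest for 14 in each group. With the replicate block 12 members rose and 15 fell, and all 25 members called without the block were called with it.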

Other observations

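The GO terms of the deposited table give a wider view of these pathways, read with the 40 members left out; some of their genes are also in the lists above. Of the genes annotated to the response to ER stress, 49 were tested, of which 18 rose and 9 fell, with a median log2 fold change of 0.12 and TRAF2 as the lowest. Among 33 genes of the ER unfolded protein response term, 6 rose and 8 fell, with a median of -0.01. The integrated stress response term had 15 genes tested, with 5 that rose, 3 that fell and a median of 0.01. Of 41 genes of the cellular response to amino acid starvation, 6 rose and 11 fell, with a median of -0.09. Genes of the ER lumen, which includes secreted and matrix proteins on their way out, numbered 174 tested, with 33 that rose and 47 that fell. Among all genes tested 23.7% rose and 20.9% fell.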
